A study of Mus musculus with 12 samples.

Results

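The nuclear-encoded subunits of the respiratory chain and of ATP synthase were followed in fat progenitor preparations and in the whole fat they came from. The members were all genes whose symbol names a subunit of complex I (Nduf), complex II (Sdh), complex III (Uqcr), complex IV (Cox4 to Cox8) or complex V (Atp5). Cox8b and Cox7a1, which mark brown fat, and pseudogenes were left out by the rule. This gave 76 of the 22180 genes tested: 31 of complex I, 4 of complex II, 7 of complex III, 17 of complex IV and 17 of complex V. Ndufa4 and its paralogue Ndufa4l2 are counted with complex IV. Cox6c had no probe set annotated to it alone and was not analysed here, and the subunits encoded by mitochondrial DNA were not analysed here either.

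Complexes I and II pass electrons from NADH and succinate to ubiquinone, complex III passes them on to cytochrome c, and complex IV passes them to oxygen. Complexes I, III and IV pump protons across the inner mitochondrial membrane, and complex V, the ATP synthase, uses the gradient to make ATP. White adipocytes draw on this chain as they store and release fat, while brown and beige adipocytes hold many more mitochondria and let protons return through Ucp1, which releases heat.

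RNA was profiled on 12 Affymetrix arrays from C57BL/6 mice, in 4 groups of 3 biological replicates: adipose progenitors (AP) and unfractionated adipose tissue (AT) from the inguinal depot (SAT), and AP and AT from the perigonadal depot (VAT). All material was fresh. AP were what remained of the enzymatically released stromal-vascular cells after beads had taken out blood cells by lineage markers and endothelium by CD31, so they were defined by depletion and not by a positive marker, and they went through a dissociation that AT did not. The labels name no genotype or treatment, and give no sex, age or number of animals per replicate, and a p-value here speaks of the spread between such samples, which may be technical. Values are the authors' log2 robust multi-array average (RMA) intensities. A level here is such an intensity, a difference is AP minus AT or VAT minus SAT of group means on that log2 scale, SE is its standard error in the limma fit, and SD is the spread of 3 replicates. A gene was called at a Benjamini-Hochberg adjusted p under 0.05 over all genes, and a mean level under 4.10, the 40th percentile, was taken as near background. Precision is limited by the 3 arrays per group.

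The labelled preparations were checked against cell markers. Over both depots, 10 of 10 progenitor markers were called higher in AP (median difference 1.31) and 12 of 12 adipocyte markers were called lower (median -3.58), none of them near background in any group. The summed adipocyte marker level was 11.34 to 11.45 in AP from SAT against 14.63 to 14.72 in AT from SAT, and 11.28 to 11.57 in AP from VAT against 14.84 to 14.90 in AT from VAT (log2 of the sum of linear intensities). Leukocyte markers were called lower in AP in 9 of 9 (median -2.96) and endothelial markers in 7 of 8, with Tek called higher. Pericyte and smooth muscle markers were called higher in 7 of 8 (median 2.48), and 13 of 13 dissociation and immediate early genes were called higher (median 4.44). Skeletal muscle markers had a median difference of 0.12, with 1 of 12 called lower and 2 called higher, and 3 to 5 of them were near background in each group. Apart from skeletal muscle, these lists differed between the same AP and AT arrays as most subunit genes. The part of any list in the differences given here was not tested. In such bulk RNA, fewer cells of a type and less RNA per cell cannot be told apart.

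The 3 arrays of AT from SAT stood apart from each other in the subunit genes. Replicate 1 had the highest level of the 3 in 60 of the 76 members (78.9%, against 29.8% of all genes), and replicate 3 had the lowest in 63 (82.9%, against 37.1% of all genes). The median deviation of the members from their group mean was 0.19 in replicate 1, 0.04 in replicate 2 and -0.24 in replicate 3. Counts of called members that rest on this group are therefore also given without replicate 1 and without replicate 3.

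Most subunit genes were lower in AP than in AT. Over both depots, 64 of the 76 were called lower (20.5% of all genes were) and 3 were called higher (22% of all genes were), with a median difference of -0.98 against 0.03 for all genes. At least 2-fold falls were called for 37 members (4.99% of all genes) and at least 2-fold rises for 1, Ndufa4l2 (3.98%). In SAT, 62 were called lower (16.3% of all genes) and 2 higher (16.1%), with a median of -1.07. In VAT, 62 were called lower (16.8%) and 3 higher (15.8%), with a median of -0.90. The fall was called in both depots for 61 members, which can hold for no more than the 16.3% of all genes called lower in SAT. In addition, Cox7a2l was called lower in SAT and Ndufa11 in VAT, without a call in the other depot. For 61 members all 6 AP arrays lay below all 6 AT arrays, which held for 13% of all genes. Without replicate 1 of AT from SAT, 61 members were called lower in SAT and 63 over both depots, and without replicate 3 these counts were 64 and 65.

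The scale decides part of these directions. When arrays were aligned on the median of 11 housekeeping genes, of which 5 were called lower and 5 higher in AP over both depots, all genes came to have a median difference of 0.40 in SAT, of 0.61 in VAT and of 0.51 for the 2 depots together, and the members one of -0.70, -0.32 and -0.51. The shift is the same for every gene of an array, so the distance of the members from all genes is fixed by construction. With that shift 50 members were called lower (7.83% of all genes) and 11 higher (78.9%) over both depots. Ndufa11, Ndufa13, Cox7a2l and Atp5o had differences above 0 without being called higher. In VAT, 35 were called lower (5.47% of all genes) and 12 higher (77.2%). There Ndufs7, Ndufs8, Ndufa7, Ndufa8, Ndufa11 and Ndufa13 came out above 0, again without a call. By complex, the housekeeping scale left 20 of 31 genes called lower in complex I (median -0.49), 4 of 4 in complex II (-0.89), 6 of 7 in complex III (-0.58), 8 of 17 in complex IV (-0.21) and 12 of 17 in complex V (-0.51). On that scale 1 gene was called higher in complex I, 7 in complex IV and 3 in complex V, and limma called 0 higher in complexes II and III, whose 11 genes all lay below 0.

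**Figure D1:**
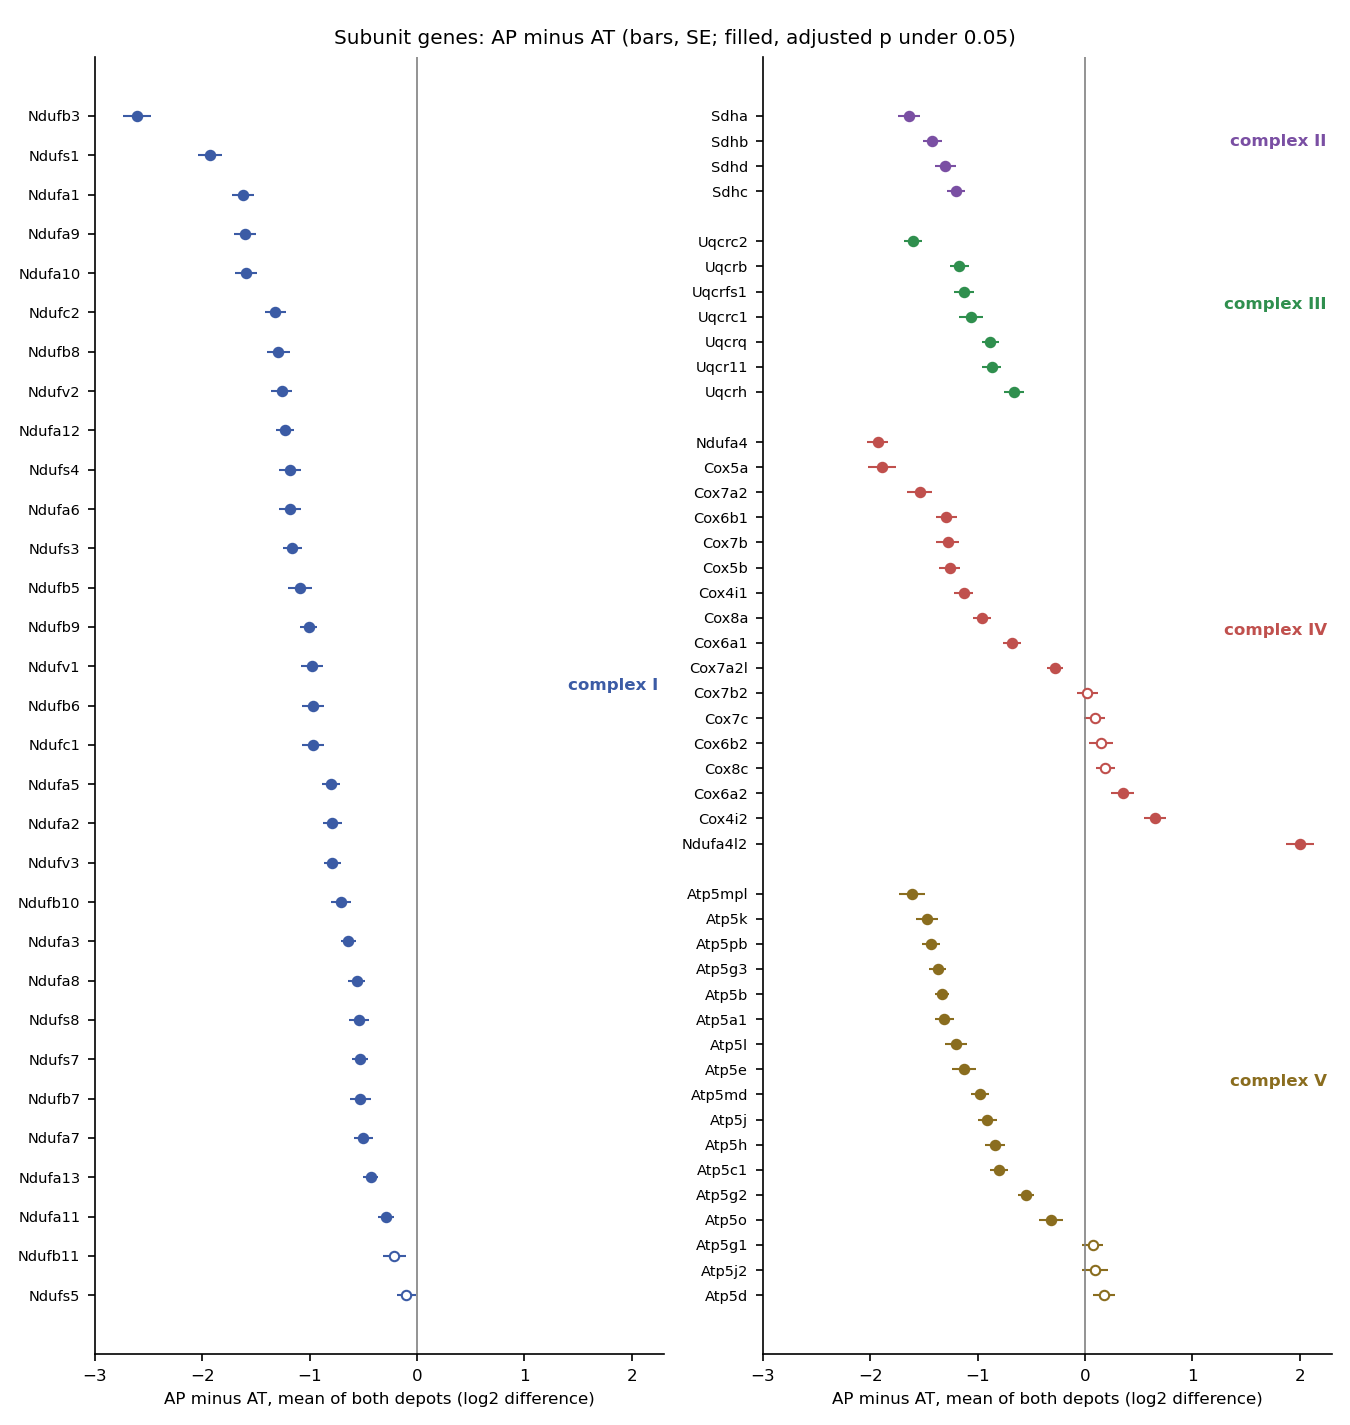
The difference AP minus AT over both depots (log2, horizontal axis) is plotted for each of the 76 subunit genes by complex, with bars for the SE and filled points for genes called at an adjusted p under 0.05. Filled points lie left of 0 for 64 genes and right of 0 for Ndufa4l2, Cox4i2 and Cox6a2, while after housekeeping scaling Ndufa11, Ndufa13, Cox7a2l and Atp5o move to the right of 0.

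The promoter windows of the subunit genes were searched for the letters of known factors. RefSeq promoter windows of 250 bases before to 50 bases after the gene start (GRCm38.p6) were found for 62 of the 76 members, with the row listed at the top used for the 5 that had several starts. Both strands were read, for letters of factors known to drive mitochondrial genes: GCATGCG for NRF1, CCGGAAG for GABPA, AAGGTCA for ESRRA, AAGATGG for YY1 and GGGCGG for SP1. The NRF1 letters were in 10 member windows (16.1%, against 4.68% of the 16918 windows of all genes) and the GABPA letters in 16 (25.8% against 11.7%). ESRRA letters were in 6 (9.68% against 4.01%), YY1 letters in 9 (14.5% against 6.53%) and SP1 letters in 27 (43.5% against 46.8%). NRF1 or GABPA letters were in 21 windows (33.9% against 15.6%). Member windows held a median of 19 CpG against 13 for all genes, at 57.8% G and C against 56.3%. The median difference AP minus AT over both depots was -0.97 in members with and -0.97 in members without the NRF1 letters, and likewise -0.97 and -0.97 for the GABPA letters. It was -1.25 with and -0.96 without the ESRRA letters, -0.97 with and -0.98 without the YY1 letters, and -1.13 with and -0.96 without the SP1 letters, given as a description with no test.

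Sdhb, Uqcr11, Cox6a1, Atp5k and Atp5l held both the NRF1 and the GABPA letters, and they are shown with Ndufb3, the member with the largest fall, whose window held none of the letters searched. The windows lie at chr4:140961021-140961320 (Sdhb, plus strand), chr10:80406772-80407071 (Uqcr11, minus strand), chr5:115348909-115349208 (Cox6a1, minus strand), chr5:108434350-108434649 (Atp5k, minus strand), chr9:44920693-44920992 (Atp5l, minus strand) and chr1:58586147-58586446 (Ndufb3, plus strand). Each is read 5′ to 3′ in the gene's direction, and capitals mark every match to the letters of the factors above on either strand, with overlapping matches run together.
Sdhb: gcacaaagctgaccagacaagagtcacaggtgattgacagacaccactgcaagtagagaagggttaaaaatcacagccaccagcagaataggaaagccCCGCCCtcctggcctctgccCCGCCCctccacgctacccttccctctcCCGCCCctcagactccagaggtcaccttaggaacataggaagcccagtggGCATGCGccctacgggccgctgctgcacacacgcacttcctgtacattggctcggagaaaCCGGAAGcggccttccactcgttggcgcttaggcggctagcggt
Uqcr11: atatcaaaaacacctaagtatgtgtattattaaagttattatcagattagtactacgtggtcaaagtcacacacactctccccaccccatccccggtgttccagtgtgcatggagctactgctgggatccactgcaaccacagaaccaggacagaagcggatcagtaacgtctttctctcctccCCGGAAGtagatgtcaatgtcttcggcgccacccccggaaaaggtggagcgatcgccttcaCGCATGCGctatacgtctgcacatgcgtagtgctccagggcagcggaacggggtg
Cox6a1: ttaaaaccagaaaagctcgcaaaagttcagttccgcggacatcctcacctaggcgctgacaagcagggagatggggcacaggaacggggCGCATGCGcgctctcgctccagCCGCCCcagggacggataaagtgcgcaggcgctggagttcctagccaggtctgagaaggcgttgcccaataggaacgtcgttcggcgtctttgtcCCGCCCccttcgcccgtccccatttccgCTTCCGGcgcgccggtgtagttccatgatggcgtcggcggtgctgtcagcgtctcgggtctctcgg
Atp5k: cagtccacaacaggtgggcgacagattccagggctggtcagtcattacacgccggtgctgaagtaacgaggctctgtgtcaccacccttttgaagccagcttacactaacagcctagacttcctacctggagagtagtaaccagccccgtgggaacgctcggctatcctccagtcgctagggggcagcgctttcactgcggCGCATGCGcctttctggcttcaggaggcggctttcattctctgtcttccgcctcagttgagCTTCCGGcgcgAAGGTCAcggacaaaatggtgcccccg
Atp5l: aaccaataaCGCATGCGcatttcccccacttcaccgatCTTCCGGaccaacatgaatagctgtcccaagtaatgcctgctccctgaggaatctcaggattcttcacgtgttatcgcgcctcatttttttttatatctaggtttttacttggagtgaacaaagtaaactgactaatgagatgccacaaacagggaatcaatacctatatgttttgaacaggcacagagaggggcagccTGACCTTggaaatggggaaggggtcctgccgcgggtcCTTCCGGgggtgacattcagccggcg
Ndufb3: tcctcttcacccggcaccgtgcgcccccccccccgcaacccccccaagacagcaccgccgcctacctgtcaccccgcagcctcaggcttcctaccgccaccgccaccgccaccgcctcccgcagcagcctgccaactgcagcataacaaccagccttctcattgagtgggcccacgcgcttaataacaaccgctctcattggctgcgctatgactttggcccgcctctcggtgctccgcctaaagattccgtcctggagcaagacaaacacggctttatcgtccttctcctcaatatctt
In Uqcr11, Cox6a1, Atp5k and Atp5l the NRF1 letters overlapped on the 2 strands as a palindrome. A match is a description of the letters and not a binding site.

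Complex I, the NADH dehydrogenase, had 29 of 31 genes called lower over both depots, with a median of -0.97. Its core subunits were called lower in 6 of 6 (median -1.07), and its accessory subunits in 23 of 25 (median -0.97). Ndufs1, the largest core subunit and the holder of several iron-sulfur clusters, had levels of 6.58, 6.42 and 6.34 in AP from SAT and of 8.92, 8.51 and 8.20 in AT from SAT. In VAT its levels were 6.20, 6.16 and 6.48 in AP and 8.18, 8.03 and 7.94 in AT. The AP and AT arrays did not overlap, and the difference was -1.93 (SE 0.110, limma adjusted p = 1.01e-09). Ndufv1, the subunit that binds NADH and the flavin, differed by -0.98, and the other core subunits differed by -1.26 (Ndufv2), -1.16 (Ndufs3), -0.54 (Ndufs8) and -0.53 (Ndufs7).

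The largest fall of all members was that of Ndufb3, a small accessory subunit of the membrane arm. Its levels were 4.90, 4.96 and 4.77 in AP from SAT and 7.89, 8.13 and 7.19 in AT from SAT. In VAT they were 4.84, 4.99 and 5.0 in AP and 7.07, 7.46 and 7.36 in AT. No AP array was above 5.0 and no AT array was below 7.07, a 6.09-fold lower level in AP (difference -2.61, SE 0.130, limma adjusted p = 2.25e-10). Next among the accessory subunits came Ndufa1 (-1.62), Ndufa9 (-1.60) and Ndufa10 (-1.59). The smallest called falls were those of Ndufa13 (-0.43) and Ndufa11 (-0.29), and both lay above 0 after housekeeping scaling. The remaining called accessory subunits lay between -1.32 (Ndufc2) and -0.50 (Ndufa7). Ndufb11 differed by -0.21 and Ndufs5, whose mean was near background, by -0.10, and neither was called.

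Complex II, succinate dehydrogenase, also works in the citric acid cycle, and 4 of its 4 genes were called lower with a median of -1.36. Sdha, the flavoprotein that oxidises succinate, had levels of 8.99, 9.07 and 8.82 in AP from SAT and of 10.95, 10.80 and 10.41 in AT from SAT. In VAT it had 8.94, 8.66 and 9.03 in AP and 10.52, 10.34 and 10.32 in AT. Its AP and AT arrays did not overlap, and it was 3.11-fold lower in AP (difference -1.64, SE 0.100, limma adjusted p = 2.33e-09). Sdhb, the iron-sulfur subunit whose promoter is printed above, differed by -1.42 (SE 0.090). Sdhd and Sdhc, which anchor the enzyme in the membrane, differed by -1.30 and -1.20. All 4 differences were at least 2-fold in each depot.

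Complex III, the cytochrome bc1 complex, had 7 of 7 genes called lower in each depot, with a median of -1.06 over both. Uqcrc2, a core protein of the matrix arm, led with levels of 8.35, 8.30 and 8.30 in AP from SAT and of 10.36, 10.18 and 9.85 in AT from SAT. In VAT its levels were 8.11, 8.25 and 8.28 in AP and 9.64, 9.59 and 9.56 in AT. The AP and AT arrays did not overlap (difference -1.60, SE 0.084, limma adjusted p = 4.12e-10). The other core protein, Uqcrc1, differed by -1.06, and Uqcrfs1, the Rieske iron-sulfur protein that takes an electron from ubiquinol, by -1.13. The small subunits Uqcrb, Uqcrq, Uqcr11 and Uqcrh differed by -1.17, -0.88, -0.87 and -0.66.

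Complex V, the ATP synthase, had 14 of 17 genes called lower, with a median of -0.98. In its catalytic F1 head, Atp5b, the beta subunit that carries the catalytic sites, had levels of 10.50, 10.57 and 10.52 in AP from SAT and of 11.88, 11.81 and 11.70 in AT from SAT. In VAT it had 10.30, 10.22 and 10.27 in AP and 11.67, 11.68 and 11.63 in AT. Its AP and AT arrays did not overlap (difference -1.33, SE 0.065, limma adjusted p = 1.65e-10). The alpha subunit Atp5a1 differed by -1.31 and the gamma subunit Atp5c1 by -0.80. The delta subunit Atp5d was the member not called whose mean, 7.60, was well above background: it had 7.50, 7.76 and 7.65 in AP from SAT and 7.63, 7.48 and 7.37 in AT from SAT. In VAT it had 8.06, 7.45 and 7.70 in AP and 7.61, 7.37 and 7.59 in AT, with overlapping groups in both depots (difference 0.18, SE 0.101, limma adjusted p = 0.177).

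Probe sets of the same gene disagreed for both small F1 subunits. For Atp5d the probe set not used had differences of -0.25 in SAT and -0.26 in VAT. For Atp5e, the epsilon subunit, the probe set used had -0.96 in SAT and -1.29 in VAT, while the dimmer one had 0.18 and 0.16. The direction of these genes therefore rests on the choice of probe set. Of the other 7 members with several probe sets, Cox5b and Ndufa8 had a dimmer probe set with a difference above 0 in VAT (0.39 and 0.31), as did Cox7b (0.11), and Ndufa11 had one above 0 in SAT (0.36).

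In the stator stalk of ATP synthase, Atp5pb, Atp5j and Atp5h differed by -1.43, -0.91 and -0.84, and Atp5o, the subunit that confers sensitivity to oligomycin, by -0.32, which was above 0 after housekeeping scaling. Among the membrane subunits, Atp5mpl had the largest fall of complex V, with levels of 7.01, 6.93 and 6.68 in AP from SAT and of 8.84, 8.69 and 8.16 in AT from SAT. In VAT it had 6.63, 6.32 and 6.77 in AP and 8.10, 8.31 and 7.90 in AT. Its groups did not overlap (difference -1.61, SE 0.122, limma adjusted p = 2.67e-08). Atp5k, Atp5l and Atp5md, which help to hold the enzyme in rows of dimers, differed by -1.47, -1.20 and -0.98. Atp5j2 was dim and differed by 0.09 without a call.

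The c ring of ATP synthase, the rotor that protons turn, is built from a protein that Atp5g1, Atp5g2 and Atp5g3 encode alike once their import signals are removed. The 3 genes had different AP to AT differences. Atp5g3 had levels of 7.03, 6.96 and 7.01 in AP from SAT and of 8.43, 8.42 and 8.34 in AT from SAT, with 7.14, 6.69 and 6.83 in AP from VAT and 8.16, 8.32 and 8.23 in AT from VAT. These groups did not overlap (difference -1.37, SE 0.080, limma adjusted p = 1.37e-09). Atp5g2 differed by -0.55 (SE 0.074, limma adjusted p = 1.45e-05), and its other probe set gave -0.50 in SAT and -0.57 in VAT. Atp5g1 was dim, with group means of 4.74 to 4.88, which limits what its small difference can show. It had 5.09, 4.72 and 4.61 in AP from SAT and 5.08, 4.62 and 4.73 in AT from SAT. Over both depots it differed by 0.07 (SE 0.097, limma adjusted p = 0.596). The differences between the paralogues themselves were not tested.

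**Figure D2:**
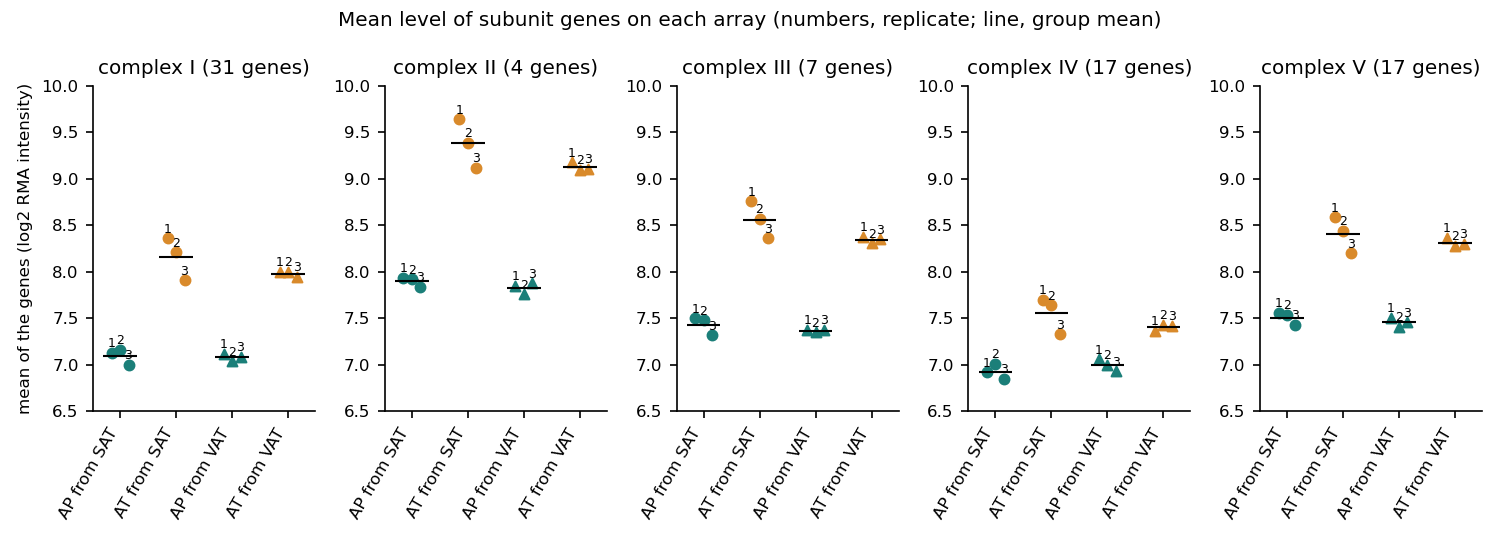
The mean level of the subunit genes of each complex (log2 RMA intensity, vertical axis) is plotted for the 12 arrays, with AP left of AT in each depot, the replicate number at each point and a line at the group mean. On this deposited scale every AP array lies below every AT array of its depot in all 5 panels, and replicate 3 is the lowest array of AT from SAT in each.

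Complex IV, cytochrome c oxidase, had genes called in both directions on the deposited scale. After housekeeping scaling complex I (20 lower, 1 higher) and complex V (12 lower, 3 higher) did so too. On that scale 7.83% of all genes were called lower and 78.9% higher. As deposited, 10 of the 17 genes of complex IV were called lower over both depots, 3 were called higher and 4 were not called. Their median was -0.68. Several of its subunits come in a widely used form and in a form that is restricted to some tissues. The 7 widely used forms were called lower in 7 of 7 (median -1.28), and the 6 restricted forms were called lower in 0 of 6 and higher in 3 of 6 (median 0.27). Cox8b and Cox7a1, restricted forms that the rule leaves out of the members, were called lower in AP over both depots, by -3.30 (limma adjusted p = 3.84e-09) and by -1.37 (limma adjusted p = 0.00143), and in VAT alone Cox7a1 differed by -0.42 without a call. At an unadjusted limma p under 0.05 the count of lower restricted forms among the members was also 0 (22.7% of all genes), since all 6 differences were above 0. Without the restricted forms, limma called 64 of 70 members lower and 0 higher over both depots, with 0 higher at an unadjusted p under 0.05 too (26.2% of all genes), and the median was -1.07.

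Among the widely used forms Ndufa4, a subunit named after complex I and later placed in complex IV, had levels of 8.53, 8.55 and 8.40 in AP from SAT and of 10.71, 10.83 and 10.18 in AT from SAT. In VAT it had 8.67, 8.51 and 8.58 in AP and 10.34, 10.37 and 10.36 in AT, again without overlap (difference -1.93, SE 0.098, limma adjusted p = 2.78e-10). Ndufa4l2, its paralogue, which hypoxia induces and which is known as a gene of pericytes, went the other way. It had 7.77, 7.81 and 7.86 in AP from SAT and 5.93, 6.47 and 5.56 in AT from SAT. In VAT it had 8.18, 7.92 and 7.87 in AP and 5.54, 6.02 and 5.87 in AT. All AP arrays lay above all AT arrays, a 4.01-fold higher level in AP (difference 2.00, SE 0.131, limma adjusted p = 4.80e-09).

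Cox4i1 and Cox4i2 encode forms of the subunit through which ATP regulates complex IV, and Cox4i2 is the form known from lung and from vascular mural cells. Cox4i1 differed by -1.13 (SE 0.091, limma adjusted p = 5.48e-08). Cox4i2 had levels of 6.64, 6.70 and 6.41 in AP from SAT and of 6.40, 6.17 and 5.96 in AT from SAT, with 7.14, 6.96 and 6.95 in AP from VAT and 6.38, 5.83 and 6.15 in AT from VAT. The groups did not overlap in either depot, and the difference was 0.41 in SAT (limma adjusted p = 0.0456), 0.90 in VAT and 0.65 over both (SE 0.104, limma adjusted p = 8.56e-05). In SAT the call was lost with cyclic loess and without any of 8 arrays: AP from SAT replicate 1 or 2, any array of AP from VAT, AT from SAT replicate 2 or 3, or AT from VAT replicate 3, with values of 0.30 to 0.41. The pericyte and smooth muscle markers Notch3, Myh11 and Rgs5 were higher in AP by 2.93, 3.03 and 0.81 over both depots, Mcam of the same list was lower (-1.09, limma adjusted p = 1.56e-08), and Cspg4 differed by 0.38 over both depots but by -0.12 without a call in SAT. The summed level of that list was 12.73 to 12.79 in AP from SAT against 11.15 to 11.26 in AT from SAT, and 13.03 to 13.19 in AP from VAT against 11.23 to 11.54 in AT from VAT. Their part in the rise of Ndufa4l2 and Cox4i2 was not tested.

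The other restricted forms were dim. Cox6a2, the heart and skeletal muscle form, had 4.96, 5.10 and 4.80 in AP from SAT and 4.57, 4.89 and 4.67 in AT from SAT, with 5.24, 5.41 and 4.84 in AP from VAT and 4.56, 4.86 and 4.69 in AT from VAT. The groups overlapped in both depots, and the difference was called in VAT (0.46, limma adjusted p = 0.0243) and over both (0.35, limma adjusted p = 0.0119) but not in SAT (0.24). The call in VAT was lost with cyclic loess (0.34) and without AP from VAT replicate 1 or 2 or AT from VAT replicate 1 or 3. Its widely used partner Cox6a1 differed by -0.68. Cox6b2, Cox7b2 and Cox8c, known mainly from testis, differed by 0.15, 0.02 and 0.19 without a call, the last 2 near background, while Cox6b1, Cox7b and Cox8a differed by -1.29, -1.28 and -0.96.

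Of the subunits of complex IV with a single form, Cox5a had levels of 7.55, 7.51 and 7.05 in AP from SAT and of 9.72, 9.36 and 9.03 in AT from SAT, with 7.13, 6.57 and 6.99 in AP from VAT and 8.77, 8.68 and 8.56 in AT from VAT. It was 3.70-fold lower in AP, without overlap (difference -1.89, SE 0.129, limma adjusted p = 8.56e-09). Cox5b differed by -1.26, and Cox7c, which was dim, by 0.09 without a call. Cox7a2 differed by -1.54. Cox7a2l, which joins complexes III and IV into supercomplexes and of which C57BL/6 mice carry a shortened protein, differed by -0.28 (SE 0.072, limma adjusted p = 0.0046), and by 0.19 after housekeeping scaling. Over all 5 complexes 9 members were not called over both depots, and 8 of them had a mean level under 5.5, as only 9 members did.

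**Figure D3:**
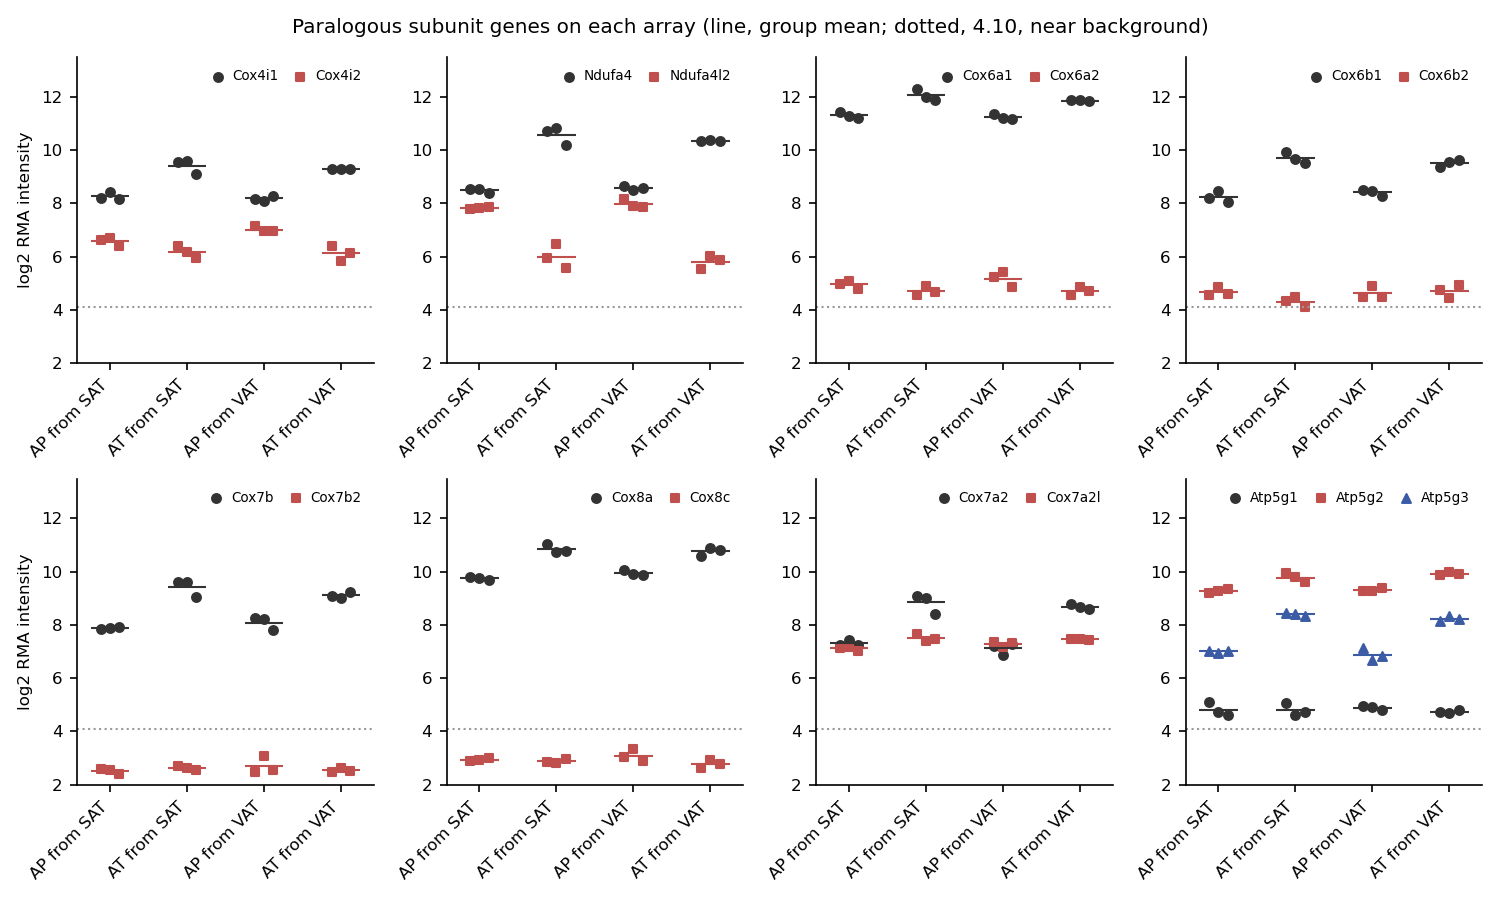
Levels of paralogous subunit genes (log2 RMA intensity, vertical axis) are plotted for each array, with AP left of AT in each depot, a line at the group mean and a dotted line at 4.10. Ndufa4l2 and Cox4i2 lie higher in AP while Ndufa4 and Cox4i1 lie lower, and the Atp5g1 points overlap while Atp5g2 and Atp5g3 lie lower in AP; after housekeeping scaling Atp5g1 differs by 0.55 and Atp5g2 by -0.08, and heights of different genes come from different probe sets and are not compared.

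The depots differed little in the subunit genes of AP. Of the 76 members, limma called 0 lower (2.6% of all genes) and 0 higher (3.03%) in AP from VAT against AP from SAT, with 2 lower (7.94%) and 1 higher (7.43%) at an unadjusted p under 0.05 and a median difference of 0.01. The largest differences were -0.47 for Cox5a and 0.43 for Cox4i2. The mean level was higher in AP from VAT for 41 of the 76. Mesothelial markers, of the lining of the body cavity, were called higher in VAT in 8 of 8, with a median difference of 3.55 in AP and of 3.28 in AT, and their part was not tested.

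In whole tissue 2 members were called lower in AT from VAT than in AT from SAT (1.75% of all genes) and 0 higher (2.8%), with 16 lower (7.02%) and 1 higher (8.76%) at an unadjusted p under 0.05. The median difference was -0.17, against 0.00 for all genes. The called members were Cox5a, with 8.77, 8.68 and 8.56 in AT from VAT and 9.72, 9.36 and 9.03 in AT from SAT (difference -0.70, SE 0.183, limma adjusted p = 0.0409), and Uqcrc2, with 9.64, 9.59 and 9.56 in AT from VAT and 10.36, 10.18 and 9.85 in AT from SAT (difference -0.53, SE 0.119, limma adjusted p = 0.0163). Neither overlapped between depots. The mean was lower in AT from VAT for 63 of the 76 members, which held for 49.3% of all genes. Without replicate 3 of AT from SAT, 15 members were called lower, and without replicate 1 the count was 0, with differences of -0.52 for Cox5a and -0.42 for Uqcrc2. It was also 0 without replicate 2 of AT from SAT and without replicate 3 of AT from VAT, and 1 without replicate 1 or 2 of AT from VAT, replicate 2 of AP from SAT or replicate 3 of AP from VAT. With only the 6 AT arrays in the limma fit, neither Cox5a nor Uqcrc2 was called, and the count was 0. The shares of all genes called above are those of the fit to all 12 arrays, and none is given for these refits.

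Brown and beige adipocyte genes moved with this difference between depots and between the AT arrays from SAT. Ucp1, the proton channel of brown fat, had levels of 5.69, 4.17 and 4.32 in AT from VAT and of 10.76, 8.62 and 4.55 in AT from SAT. Cidea, a lipid droplet protein of brown fat, had 6.16, 4.57 and 4.76 in AT from VAT and 10.64, 9.73 and 8.71 in AT from SAT. Replicate 1 of AT from SAT was the highest and replicate 3 the lowest in both, as in most subunit genes. Cox8b, the form of the Cox8 subunit used in brown fat, heart and muscle, had 7.01, 6.78 and 6.37 in AT from VAT and 10.30, 9.83 and 8.80 in AT from SAT, and Cox7a1 had 6.37, 5.79 and 5.82 in AT from VAT and 9.25, 7.85 and 6.64 in AT from SAT. Of the 11 genes of the list 5 were called lower in AT from VAT (1.75% of all genes) and 0 higher (2.8%). The other 6, among them Ucp1, Elovl3 (-1.83) and Dio2 (-0.86), were not called, and Zic1 had the smallest difference (-0.21). The summed level of the list was 8.44 to 9.02 in AT from VAT against 10.27 to 12.55 in AT from SAT. It was 7.94 to 8.01 in AP from VAT and 8.12 to 8.19 in AP from SAT. Progenitor markers had summed levels of 13.13, 12.93 and 13.73 in replicates 1, 2 and 3 of AT from SAT, highest in replicate 3. The part of either list in the subunit genes was not tested.

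**Figure D4:**
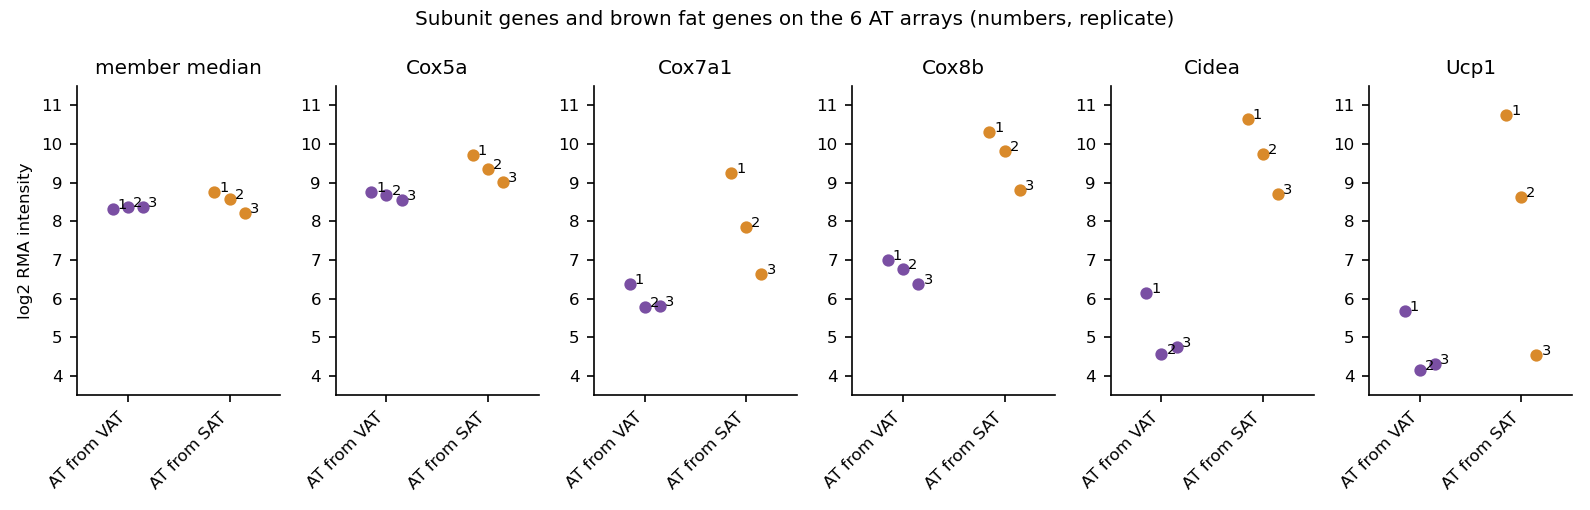
Levels on the 6 AT arrays (log2 RMA intensity, vertical axis) are plotted for the median of the 76 subunit genes, for Cox5a and for 4 brown fat genes, with AT from VAT left of AT from SAT and the replicate number at each point. In all 6 panels replicate 1 of AT from SAT is the highest and replicate 3 the lowest of that group, and Ucp1 spans 4.55 to 10.76 there.

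Whether the fall in AP differed between the depots was tested by the interaction: VAT minus SAT in AP, less VAT minus SAT in AT. Limma called 0 members above 0 (0.987% of all genes) and 0 below (1.16%), with 6 above (5.85%) and 0 below (7.53%) at an unadjusted p under 0.05. The median was 0.15, and 63 of the 76 members lay above 0, against 49.5% of all genes. The largest was 0.57 for Uqcrb, which averaged 10.05 ± 0.17 in AP from VAT against 10.93 ± 0.06 in AT from VAT, and 9.87 ± 0.18 in AP from SAT against 11.32 ± 0.13 in AT from SAT (SD, n = 3 each). The interaction and the depot difference in AT share the arrays of AT from SAT, whose replicates stood apart. Without replicate 3 of that group 1 member was called above 0, and without replicate 1 the count was 0.

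Genes that work around the complexes were described from lists of assembly factors, carriers and regulators. One list joined electron carriers, subunits whose symbols fall outside the naming rule and many genes of ubiquinone synthesis, such as the Coq genes. Its genes were called lower in 15 of 15 over both depots (median -1.07), with the smallest fall in Coq4 (-0.31). After housekeeping scaling 12 of 15 were called lower (median -0.60). On the deposited scale its falls included Etfa (-1.99) and Etfdh (-1.80), which bring electrons from fatty acid oxidation to ubiquinone. Cycs, which is cytochrome c, differed by -1.77 on that scale. Assembly factors were called lower over both depots in 13 of 15 for complex I (median -0.56) and 9 of 10 for complexes II and III (-0.50). For complex IV 18 of 20 were called lower (-0.69). For complex V, whose list also holds the inhibitor Atpif1, 3 of 4 genes were called lower (-1.09). Atpif1 was the only gene of these lists called higher over both depots. After housekeeping scaling the counts called lower were 5 of 15, 1 of 10, 9 of 20 and 3 of 4. The medians were then -0.09, -0.03, -0.21 and -0.62, with 2, 1, 4 and 1 called higher. In SAT alone on the deposited scale, 1 gene for complexes II and III was called higher, and the largest difference there was 0.56 (Uqcc2). Over both depots on that scale Atpif1, the protein that blocks ATP synthase from running in reverse, differed by 0.48 (SE 0.083, limma adjusted p = 0.000159). Tmem126b and Foxred1 (complex I), Uqcc1 (complex III), Coa5 and Cox20 (complex IV) and Atpaf2 and Tmem70 (complex V) had the largest falls, at -1.72, -1.10, -1.06, -1.53, -1.26, -1.47 and -1.40.

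Mitochondrial ribosomal proteins were called lower in 56 of 71 and higher in 1 (median -0.49), from Mrpl42 at -1.57 to Mrpl52 at 0.44, while housekeeping scaling gave 20 lower and 16 higher (median -0.02). Protein import genes were called lower in 13 of 17 (median -0.54), led by Hspa9 (-1.47), the motor chaperone, and Timm23 (-1.03), the channel, and after housekeeping scaling 3 were lower and 4 higher (median -0.06). Genes that maintain and transcribe mitochondrial DNA were called lower in 7 of 13 (median -0.41), led by Tfb2m (-1.44), a transcription factor of mitochondria, and after housekeeping scaling 3 were lower and 6 higher (median 0.07). The regulators of mitochondrial biogenesis split, with 5 of 16 called lower and 5 called higher (median 0.08), or 2 lower and 11 higher after housekeeping scaling (median 0.55). On the deposited scale Pparg, the adipocyte regulator, differed by -2.17 and Ppargc1a, the coactivator known for raising mitochondrial number, by -1.97. Nfe2l2, of the antioxidant response, differed by 0.78 and Hcfc1, a transcription coregulator, by 0.61. Nrf1, whose letters are marked in the promoters above, differed by 0.34 (SE 0.076, limma adjusted p = 0.00148), and Gabpa by -0.39 (SE 0.094, limma adjusted p = 0.00293), which housekeeping scaling turned to 0.08. List counts on the deposited scale stand against the 20.5% of genes called lower and the 22% called higher over both depots. Those after housekeeping scaling stand against 7.83% of genes called lower and 78.9% called higher.

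**Figure D5:**
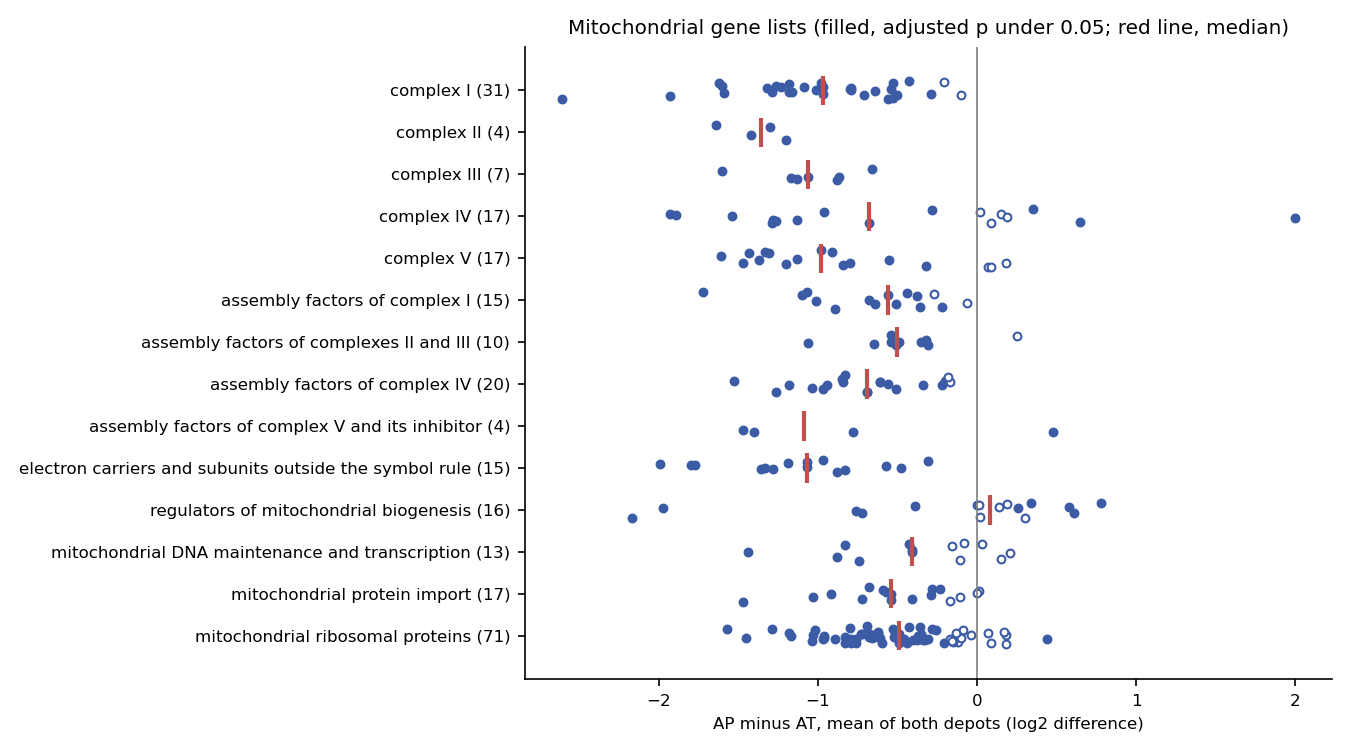
The difference AP minus AT over both depots (log2, horizontal axis) is plotted for each gene of the 5 complexes and of 9 further mitochondrial lists, with the number of genes in brackets, filled points for genes called at an adjusted p under 0.05 and a red line at the median. The list medians lie between -1.36 for complex II and 0.08 for the regulators of biogenesis on the deposited scale, and housekeeping scaling, which puts the median of all genes at 0.51, shifts every point to the right by the same amount and brings the median of mitochondrial DNA maintenance and transcription above 0, at 0.07.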

How the data were processed

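As deposited, each probe set has a log2 intensity, which the authors obtained by RMA with Affymetrix Expression Console 1.3.0.187, per the submitters' processing notes; the annotation library and genome build are not given in the sources used here. Base 2 follows from the method and the range of the values. GEO's platform annotation named 1 gene for 23521 of the 41345 probe sets, several for 1814 and none for 16010. Probe sets with 1 gene were used, and the one with the highest mean per gene, which left 22180 genes. The members had 85 such probe sets, and 67 members had 1 each. A further 10 probe sets that name several genes, at least 1 of them fitting the rule, were left out.

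A linear model with a mean for each of the 4 groups was fitted to the 12 arrays by limma 3.58.1 (R 4.3.3) with 8 residual and 6.84 prior degrees of freedom, 2-sided moderated tests and Benjamini-Hochberg adjustment over all genes. Contrasts set AP against AT within each depot and as the mean of the depots, set VAT against SAT within AP and within AT, and took the interaction. The code was tested on simulated data.

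The members and the gene lists were chosen with earlier results of these data known. Named genes were, per complex, the called members with the 2 largest falls and 2 largest rises, the paralogue sets, fixed core subunits, called members that went against their complex, and the 2 largest called falls and rises of each mitochondrial list. Gabpa, the remaining members and the single marker genes are given to complete an account.

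Alternatives were a replicate block, trend and robust variance, fits of the compared groups alone, arrays renormalized by quantiles or cyclic loess, housekeeping scaling, a filter on dim genes, the mean over probe sets, and each array left out in turn. Promoter windows are RefSeq's (GRCm38.p6). Figures were drawn with Python 3.11.15 and matplotlib 3.10.9.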

Additional observations from a re-analysis of the deposited data

Results flagged for a closer look

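The depot difference in AP and the depot difference in AT were not the same for 13 genes of the marker and pathway lists, by limma's test of the interaction adjusted over all genes. Of all genes, 0.987% were called above 0 and 1.16% below 0 in the same test. None of the 13 is a subunit gene of the members. Cidea, a brown fat gene, had an interaction of 4.58 (adjusted p = 0.000601), with levels of 6.16, 4.57 and 4.76 in AT from VAT and of 10.64, 9.73 and 8.71 in AT from SAT. Otop1, another brown fat gene, had 2.81 (adjusted p = 0.000379). Myh11, the smooth muscle myosin, had 0.79 (adjusted p = 0.0106) and was higher in AP than in AT in both depots, by 3.43 in VAT and 2.64 in SAT. The interaction was also above 0 for Cspg4 of the pericyte list (1.00), for Kdr and Emcn of endothelium (1.95 and 1.16) and for Wt1 of mesothelium (0.71). It was below 0 for Hspa1b of the dissociation list (-1.56), Acta1 of skeletal muscle (-1.41), Plin4 of adipocytes (-1.10) and the mitochondrial ribosomal proteins Mrpl20 (-0.72), Mrpl54 (-0.72) and Mrps28 (-0.61).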

How the results depend on the processing

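Of the 12 counts of called members, quantile normalization, trend and robust variance, the filter on dim genes and the mean over probe sets left all 12 within 1.5 times of the reported count. Housekeeping scaling gave 7 higher in SAT (56.1% of all genes), 35 lower (5.47%) and 12 higher (77.2%) in VAT and 11 higher (78.9%) over both depots. It turned Cox7a2l to 0.40 in VAT and 0.19 over both depots and Cox6b2 to 0.50 in VAT. Cyclic loess gave 1 higher in SAT. The compared groups alone gave 0 lower for VAT minus SAT in AT and 1 higher for VAT minus SAT in AP. Without each array in turn, 61 to 64 members were lower and 1 to 2 higher in SAT, 60 to 62 lower and 2 to 4 higher in VAT, 63 to 65 lower and 3 to 4 higher over both depots, 0 to 15 lower for VAT minus SAT in AT, and 0 to 1 above 0 in the interaction. Across 1922 values of single named members, 1869 kept their direction and side of the threshold, 36 lost and 14 gained a call, and 3 turned. With the replicate number as a block, 63 members were lower and 2 higher in SAT, 61 lower and 3 higher in VAT, 64 lower and 3 higher over both depots and 2 lower for VAT minus SAT in AT. Same-numbered arrays had correlations of their deviations from -0.28 to 0.159, and arrays with different numbers had -0.184 to 0.309. These values cannot decide whether a number marks shared animals, which the labels do not say. Other causes of these changes were not tested, and levels near background limit the dim subunits.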
